A study of Mus musculus with 9 samples.

Results

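The 9 genes described here encode transcription factors known for driving epithelial-mesenchymal transition. They were taken by symbol from the deposited count table, which held 24594 genes, and all 9 had a row. They are Zeb1 and Zeb2, Snai1 (Snail) and Snai2 (Slug), Twist1 and Twist2, Prrx1 and Prrx2, and Foxc2. Transcripts of 7 of them were abundant enough to be tested, and Twist2 and Foxc2 were too low. All libraries came from BG2 cells, a mammary tumour line of an MMTV-NeuIresCre (MMTV-NIC) mouse, in which the MMTV promoter drives the oncogene Neu and Cre together in mammary epithelium. Clone 1 and clone 2 were Sox10 knockout clones, made by CRISPR with guides against exon 3 and expanded from an edited bulk population. The wild-type cells, whose library names carry NTC, were a bulk population with intact Sox10 and the same Neu background. Each of the 3 groups had 3 technical replicates of stranded, polyA-enriched RNA. Each knockout is therefore represented by a single clone, and an effect of Sox10 loss and one of picking a clone from a mixed population cannot be told apart. The p-values measure only the spread between technical replicates.

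In epithelial-mesenchymal transition, cells lose junctions and apical-basal polarity and take on features of mesenchymal cells. The Snail and Zeb proteins bind E-box sequences in the promoters of epithelial genes such as Cdh1 (E-cadherin) and recruit co-repressors there. Twist proteins are helix-loop-helix factors that pair with E proteins, Prrx1 and Prrx2 are homeobox factors of limb and craniofacial mesenchyme, and Foxc2 is a forkhead factor of mesoderm. In mammary epithelium Snai2 is known as a factor of basal and progenitor cells, whereas Zeb1 and Zeb2 are held down by microRNAs of the miR-200 family.

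Each library held 65805296 to 83282841 counts, so that 3 counts in a library corresponded to 0.0360 to 0.0456 CPM (counts relative to library size, scaled by TMM). Sox10 itself was near absent from the clones, with 6 counts over the 3 libraries of clone 1 and 4 over those of clone 2, against 64135 over the wild-type libraries. All 6 epithelial markers (Epcam, Cdh1, Krt8, Krt18, Krt7, Cldn7) fell in both clones. By the edgeR test described below, 29.4% of all tested genes were lower in both clones and 28.7% higher in both. The 6 epithelial markers summed to 1109 to 1261 CPM in clone 1 and 1367 to 1549 CPM in clone 2. In wild-type cells they summed to 8820 to 10350 CPM. Most of the clones' sum was Krt8 and Krt18, averaging 666 and 480 CPM in clone 1 and 787 and 641 CPM in clone 2. Epcam and Cldn7 averaged at most 0.0430 CPM in either clone. Of 9 fibroblast markers, 5 of the 6 tested rose in both clones. The 9 summed to 239.8 to 247.5 CPM in clone 1, 160 to 178.7 CPM in clone 2 and 31 to 36.8 CPM in wild-type cells. Most of that sum in the clones was Pdgfra, Pdgfrb and Fbln1, with Pdgfra averaging 172 CPM in clone 1 and 107 CPM in clone 2. Col1a1, Col1a2, Col3a1 and Dcn each averaged at most 2.95 CPM in either clone. The fibroblast genes Lum and Thy1 had 0 counts in every library. Some markers, among them Epcam, Cdh1, Col1a1 and Col3a1, are counted again in the lists of repressed and mesenchymal genes below. The 6 immune markers summed to at most 0.784 CPM in any library, and Cd3e had 0 counts throughout. The 5 endothelial markers summed to 15.9 to 18.2 CPM in clone 1, nearly all of it Kdr, to 0.816 to 1.09 CPM in clone 2 and to 0 to 0.108 CPM in wild-type cells. Apart from these levels, the part of other cell types in the changes described here was not tested. In bulk RNA, fewer cells of a type and less RNA per cell cannot be told apart.

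The composition of this set of factors was different in the clones, rather than the whole set being higher. Zeb1, Zeb2, Snai2 and Prrx1 rose in both clones, by 7.06-fold to 42.1-fold. Snai1 and Prrx2 fell in both clones, far more in clone 2 than in clone 1, and Twist1 fell modestly in both. In clone 1, 7 of 7 tested members passed edgeR's quasi-likelihood test (Benjamini-Hochberg adjusted p under 0.05), 4 higher and 3 lower. Of all 13928 tested genes 76.5% passed, 37.9% higher and 38.6% lower. In clone 2 the counts were also 4 higher and 3 lower, where 74.4% of tested genes passed, 37.3% higher and 37.1% lower. The direction was the same in both clones for all 7, where 28.7% of tested genes were higher in both and 29.4% lower in both. A share of 7 in 7 is thus little above the background, and changes past 2-fold were counted as well. The members were chosen with earlier results of these data known, so neither count is independent of these data. Changes past 2-fold, tested with glmTreat in edgeR, were found for 6 of 7 members in each clone, 4 higher and 2 lower. Past 2-fold were 25.7% of tested genes in clone 1 (12.6% higher, 13.1% lower) and 24.3% in clone 2 (12.2% higher, 12.2% lower). Past 2-fold and in the same direction in both clones were 4 members that were higher and 2 that were lower, where 8.84% and 9.54% of tested genes were. Both comparisons use the same wild-type libraries. In each clone the 3 libraries stood clear of the wild-type libraries for each of the 7 members. How many of all tested genes did so was not counted, so this separation cannot be called particular to the members.

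**Figure D1:**
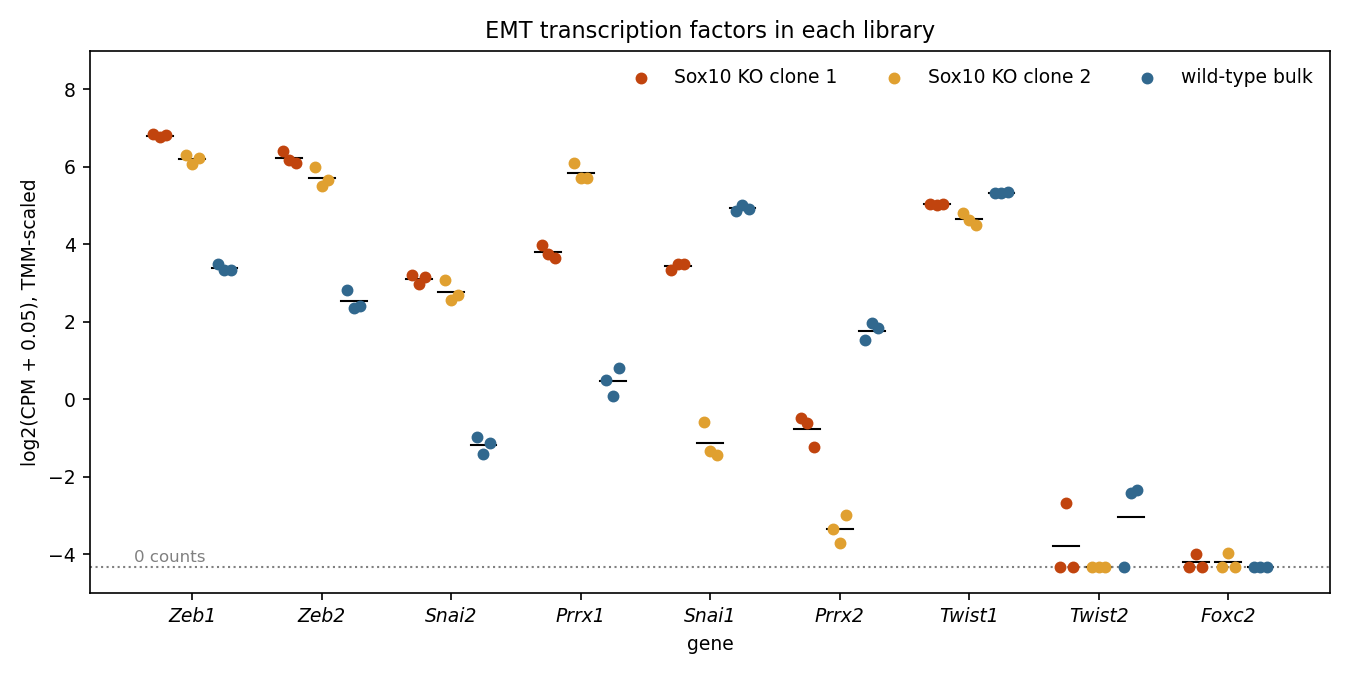
Level of each of the 9 factors in every library, as log2 of CPM plus 0.05, with clone 1, clone 2 and wild-type cells from left to right within each gene. Points are single libraries and short lines their group means; Zeb1, Zeb2, Snai2 and Prrx1 lie higher in both clones, Snai1 and Prrx2 lie lower, and Twist2 and Foxc2 stay near the level of 0 counts.

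The median log2 fold change of the 7 tested members was 3.34 in clone 1 and 2.82 in clone 2, against 0.00248 and -0.00267 over all tested genes. That median rests on the 4 members that rose and hides the 3 that fell. Each value of these members rests on at least 10 counts per library, apart from Prrx2 in clone 2, with 2 to 6.

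**Figure D2:**
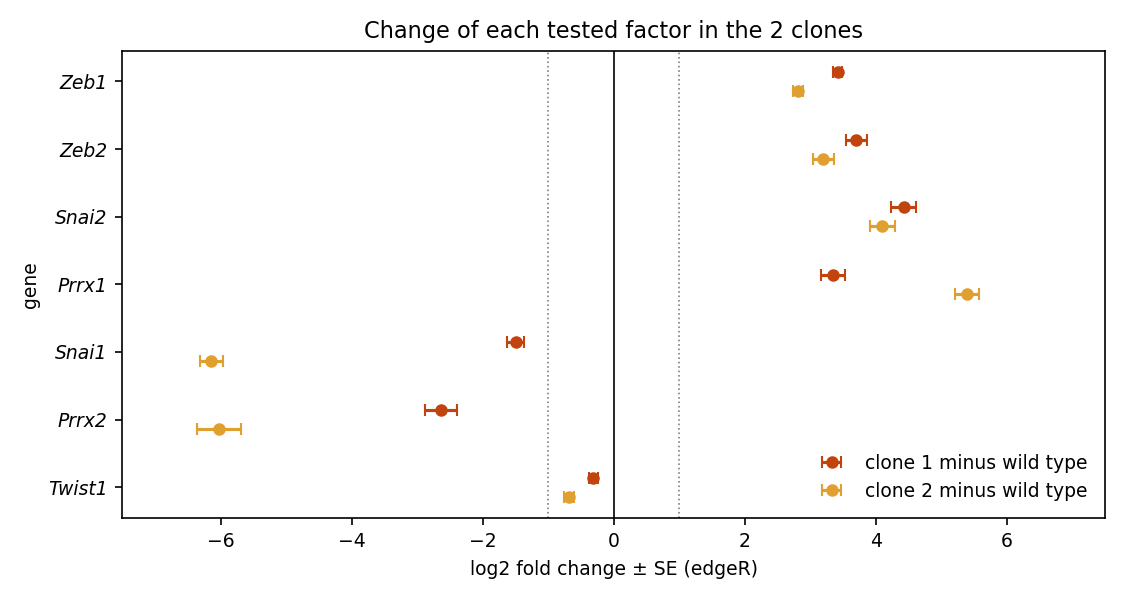
Log2 fold change of the 7 tested factors in clone 1 and in clone 2, each against wild-type cells. Bars are 1 standard error derived from edgeR's F statistic, and dotted lines mark a log2 fold change of 1 in either direction. Zeb1, Zeb2, Snai2 and Prrx1 lie right of 0 in both clones, and Twist1, Snai1 and Prrx2 lie left of 0.

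Zeb1 (Entrez 21417, chromosome 18) encodes a zinc finger and homeobox repressor of epithelial genes, and its level was far higher in both clones. It had 115, 108 and 113 CPM in the libraries of clone 1 and 78.6, 67.2 and 75.6 CPM in those of clone 2, against 11.2, 10.1 and 10.1 CPM in wild-type cells. The 3 groups did not overlap. Its log2 fold change was 3.42 ± 0.07 (SE, n = 3 libraries per group) in clone 1, with an edgeR adjusted p of 6.65e-12. In clone 2 it was 2.82 ± 0.07, with an edgeR adjusted p of 2.61e-11. Zeb1 was transcribed in the wild-type cells too, with 748 to 816 counts per library. The 357 tested genes of its chromosome had a median log2 fold change of 0.38 in clone 1 and 0.24 in clone 2.

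Zeb2 (Entrez 24136, GRCm38 chr2:44983512-45117442, minus strand) is the paralog of Zeb1 and recognises the same E-boxes. It had 85.0, 72.9 and 69.2 CPM in clone 1 and 63.9, 45.5 and 50.6 CPM in clone 2, against 7.08, 5.11 and 5.24 CPM in wild-type cells. In each group replicate 1 was the highest library, and the clones nevertheless lay far above every wild-type library. The log2 fold change was 3.71 ± 0.16 in clone 1 (SE, n = 3, edgeR adjusted p 1.91e-09) and 3.20 ± 0.16 in clone 2 (edgeR adjusted p 6.19e-09). The paralogs thus moved together. Zeb1 made up 74.2 ± 1.83% of the length-scaled sum of the pair in clone 1 and 73.0 ± 2.18% in clone 2, against 77.9 ± 2.15% in wild-type cells (SD, n = 3).

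Long noncoding RNAs that overlap the Zeb genes were looked up after the values had been seen. Gm10125, which overlaps Zeb1, had 119, 146 and 136 counts in clone 1 and 25, 39 and 23 in clone 2, against 2, 0 and 0 in wild-type cells. Zeb2os, an opposite-strand transcript of Zeb2, had 88, 131 and 93 counts in clone 1 and 105, 92 and 90 in clone 2, against 4, 2 and 1 in wild-type cells. Both noncoding genes were thus almost silent in wild-type cells and present in every clone library. Relative to library size, Zeb2os was 46.7 times higher in clone 1 (95% counting interval 22.4 to 117) and 38.7 times higher in clone 2 (18.6 to 97.2). For Gm10125 the ratios were 210 (57.8 to 1740) in clone 1 and 41.1 (11 to 345) in clone 2. No label or header states whether the authors counted by strand, so reads of a Zeb gene and of an overlapping transcript cannot be told apart with certainty.

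The nearest protein-coding genes on either side of Zeb1 and Zeb2 had smaller changes. Zfp438 and Arhgap12 lay 256501 and 248980 bases from Zeb1, and Gtdc1 and Acvr2a lay 55795 and 3696667 bases from Zeb2. Beside Zeb1, Zfp438 had log2 fold changes of 0.34 and 0.51 in clone 1 and clone 2, and Arhgap12 had 0.66 and 0.56, all 4 past edgeR's test. Beside Zeb2, Gtdc1 fell by 1.48 in clone 1 and by 1.47 in clone 2 on the log2 scale, opposite to Zeb2. Acvr2a, on the other side, rose by 0.61 in clone 1 and had 0.35 in clone 2, which did not pass. Over the 1126 tested genes of the chromosome of Zeb2 the median log2 fold change was -0.02 in clone 1 and -0.06 in clone 2.

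The miR-200 family recognises the Zeb transcripts through a pair of seeds that differ by a single base. Mature sequences from RefSeq (GRCm38.p6) are printed with the seed, bases 2 to 8, in capitals, to show which letters the target sites complement. The first 3 share the seed AAUACUG and the last 2 the seed AACACUG.
mmu-miR-200b-3p: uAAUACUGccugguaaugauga
mmu-miR-200c-3p: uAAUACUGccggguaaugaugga
mmu-miR-429-3p: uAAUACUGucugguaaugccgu
mmu-miR-200a-3p: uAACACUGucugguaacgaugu
mmu-miR-141-3p: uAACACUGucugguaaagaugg

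The complements of these seeds, CAGTATT and CAGTGTT, were counted on the sense strand in the 3′ UTR of each factor (GENCODE M21, GRCm38). The Zeb1 3′ UTR of 2401 bases held 9 and the Zeb2 3′ UTR of 4941 bases held 9, in each case 5 of CAGTATT and 4 of CAGTGTT. Of 2571 UTRs within 20% of the length of Zeb1's, 0.0389% had as many, which is Zeb1 alone, and of 1026 like Zeb2's, 0.0975%, which is Zeb2 alone. Snai2 had 2 (as many in 3.78% of UTRs of like length), Snai1 had 1 (15.6%) and Foxc2 had 1 (17.2%). Twist1, Twist2, Prrx1 and Prrx2 had 0. As examples of these letters in context, 4 of the 9 matches of Zeb2 are printed 5′ to 3′ on the minus strand of chromosome 2 (GRCm38), with the seed complement in capitals.
Zeb2 chr2:44988169-44988194: gcactaccatacatCAGTATTttatt
Zeb2 chr2:44988104-44988129: gcactacagtgcatCAGTATTacgat
Zeb2 chr2:44987821-44987846: gtgccatccttgtaCAGTGTTcagag
Zeb2 chr2:44987780-44987805: ctttgcaccagcttCAGTGTTaagct

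Mature microRNAs are not captured by polyA-enriched libraries, so these data do not measure the miR-200 family. Some hairpin genes had rows in the count table, and they were looked at after the values had been seen. Mir141, which lies beside Mir200c on chromosome 6, had 4, 0 and 0 counts in clone 1 and 0 in all of clone 2, against 43, 42 and 49 in wild-type cells. Relative to library size it was 32.0 times higher in wild-type cells than in clone 1 (95% counting interval 12.2 to 119). In clone 2 it was at least 47.3-fold lower than in wild-type cells, with the floor of 3 counts over the group. Mir200c had 0 counts in clone 1, 2 in clone 2 and 8 in wild-type cells over 3 libraries, and Mir429 had 0 throughout. Reads at a hairpin row come from longer transcripts that cross it, and a level of mature miR-141 cannot be read from them.

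Snai1 (Entrez 20613, GRCm38 chr2:167538195-167542814, plus strand), a zinc finger repressor known for starting the transition, went the opposite way to its paralog Snai2. It had 10.02, 11.1 and 11.2 CPM in clone 1 and 0.612, 0.344 and 0.319 CPM in clone 2, against 28.9, 32.3 and 29.96 CPM in wild-type cells. In raw counts these were 661 to 849 per library in clone 1 and 25 to 51 in clone 2, against 2003 to 2424 in wild-type cells. No libraries of different groups overlapped. The log2 fold change was -1.49 ± 0.13 in clone 1 (SE, n = 3, edgeR adjusted p 6.91e-07), a 2.82-fold lower level. In clone 2 it was -6.14 ± 0.17 (edgeR adjusted p 5.54e-11), a 70.6-fold lower level. The flanking genes fell slightly, Rnf114 by 0.59 in clone 1 and 0.74 in clone 2, and Ube2v1 by 0.49 and 0.22, on the log2 scale.

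Snai2 (Entrez 20583, GRCm38 chr16:14705852-14709395, plus strand) had 602, 597 and 623 counts in clone 1 and 696, 445 and 498 in clone 2, against 32, 24 and 33 in wild-type cells. In CPM the clone libraries lay between 5.89 and 9.13 and the wild-type libraries between 0.324 and 0.462. The log2 fold change was 4.43 ± 0.19 in clone 1 (SE, n = 3, edgeR adjusted p 1.77e-09), or 21.6-fold. In clone 2 it was 4.11 ± 0.19 (edgeR adjusted p 3.61e-09), or 17.2-fold. Of its neighbours, Efcab1 had at most 2 counts per library and could not be tested. Over the 443 tested genes of chromosome 16 the median was 0.23 in clone 1 and 0.47 in clone 2. Because the paralogs moved apart, the share of Snai2 in their length-scaled sum was 39.1 ± 3.08% in clone 1 and 93.0 ± 1.26% in clone 2, against 1.05 ± 0.234% in wild-type cells (SD, n = 3).

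Twist1 (Entrez 22160, GRCm38 chr12:33957671-33959831, plus strand), a basic helix-loop-helix factor of mesoderm and neural crest, was already transcribed in wild-type cells and changed least. It had 32.8, 32.4 and 32.7 CPM in clone 1 and 28.0, 24.8 and 22.7 CPM in clone 2, against 40.3, 40.2 and 40.7 CPM in wild-type cells. The groups did not overlap. Clone 2 was wider (SD 2.67 CPM, n = 3) than clone 1 (0.237) and wild-type cells (0.255). The log2 fold change was -0.31 ± 0.07 in clone 1 (SE, n = 3, edgeR adjusted p 0.00229) and -0.68 ± 0.07 in clone 2 (edgeR adjusted p 5.12e-06), neither past 2-fold. The 480 tested genes of chromosome 12 had medians of similar size, -0.39 in clone 1 and -0.51 in clone 2, so Twist1 differed from its chromosome's median by 0.08 in clone 1 and -0.17 in clone 2. Whether the chromosome as a whole moved Twist1 was not tested. Its neighbours Ferd3l, at 0 counts, and Hdac9, at most 4 counts per library, were too low to test.

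Twist2 (Entrez 13345, GRCm38 chr1:91801461-91848034, plus strand), a close relative of Twist1, was too low to test. It had 0, 8 and 0 counts in clone 1 and 0 in each library of clone 2, against 0, 10 and 12 in wild-type cells. Relative to library size the wild-type sum of 22 counts was 2.62 times the 8 counts of clone 1 (95% counting interval 1.12 to 6.81). These reads came from 1 of 3 libraries in clone 1 and from 2 of 3 in wild-type cells, so libraries of the same group differed as much. Foxc2 (Entrez 14234, GRCm38 chr8:121116171-121118895, plus strand) had 0, 1 and 0 counts in each clone and 0 in every wild-type library. At these depths no change in Foxc2 was detectable.

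Prrx1 (Entrez 18933, GRCm38 chr1:163245119-163315145, minus strand), a paired-related homeobox activator of mesenchyme, had the highest rise of the 9 in clone 2. It had 15.8, 13.4 and 12.4 CPM in clone 1 and 68.2, 52.0 and 52.4 CPM in clone 2, against 1.37, 1.00 and 1.71 CPM in wild-type cells. The 3 groups were far apart. The log2 fold change was 3.34 ± 0.18 in clone 1 (SE, n = 3, edgeR adjusted p 1.45e-08), or 10.2-fold, and 5.40 ± 0.19 in clone 2 (edgeR adjusted p 3.01e-10), or 42.1-fold. Its neighbour Gorab had -0.16 in clone 1, which did not pass, and rose by 0.64 in clone 2, while Mroh9 had 0 counts. The 811 tested genes of chromosome 1 had medians of -0.29 in clone 1 and 0.05 in clone 2.

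Prrx2 (Entrez 20204, GRCm38 chr2:30845064-30881251, plus strand), the paralog of Prrx1, went the opposite way. It had 44, 46 and 26 counts in clone 1 and 4, 2 and 6 in clone 2, against 197, 284 and 283 in wild-type cells. In CPM these were 0.373 to 0.667 in clone 1 and 0.0265 to 0.0766 in clone 2, against 2.85 to 3.84 in wild-type cells. Clone 2 thus lay near the level of 3 counts per library. The log2 fold change was -2.63 ± 0.25 in clone 1 (SE, n = 3, edgeR adjusted p 1.61e-06) and -6.02 ± 0.34 in clone 2 (edgeR adjusted p 2.10e-08). From the counts alone, wild-type cells held 67.4 times the share of clone 2 (95% counting interval 38.3 to 131). Asb6 and Ptges, on either side, moved the other way, with log2 fold changes of 0.29 and 0.37 in clone 1 and 0.23 and 0.45 in clone 2. Prrx1 made up 82.0 ± 3.07% of the length-scaled sum of the pair in clone 1 and 99.5 ± 0.281% in clone 2, against 6.75 ± 2.02% in wild-type cells (SD, n = 3).

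**Figure D3:**
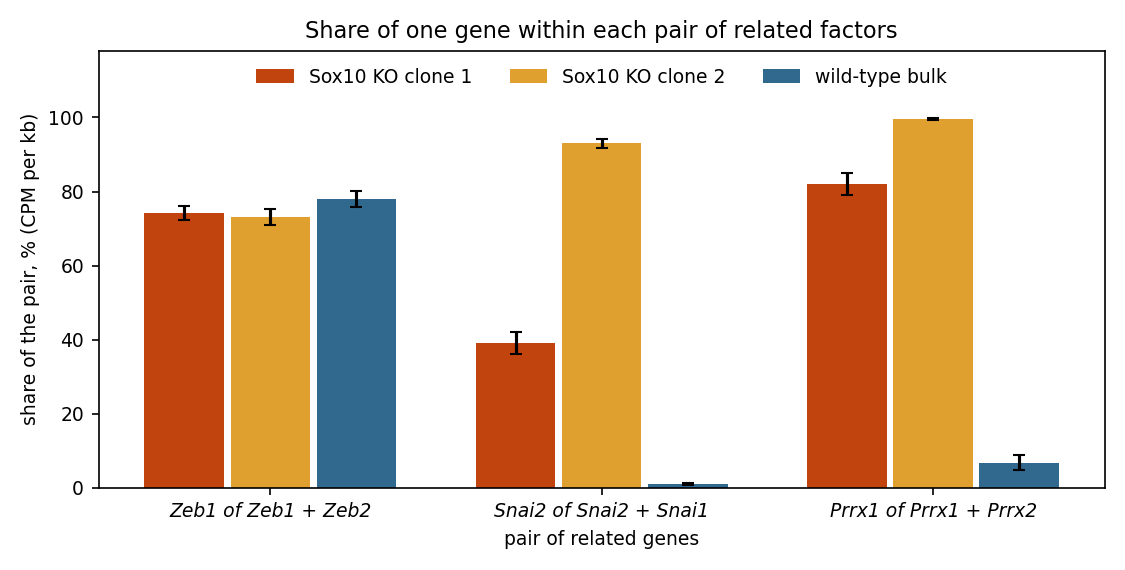
Share of 1 paralog in the summed level per kilobase of its pair, in percent, for Zeb1 of Zeb1 and Zeb2, Snai2 of Snai2 and Snai1, and Prrx1 of Prrx1 and Prrx2. Bars are means and error bars SDs of 3 libraries in clone 1, clone 2 and wild-type cells from left to right; single libraries of the Zeb pair lie between 70.5 and 79.4%, while the other pairs differ between all 3 groups.

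The clones were also set against each other, to ask how far 2 knockout clones of the same gene share a pattern. Of the 7 tested members, 1 was higher and 5 were lower in clone 2 than in clone 1, where 57.6% of tested genes differed, 30.1% higher and 27.5% lower. Past 2-fold, 1 was higher and 2 were lower, where 8.52% of tested genes were past it, 4.67% higher and 3.84% lower. Those 3 were Snai1, Prrx1 and Prrx2. Snai1 averaged 0.425 ± 0.162 CPM (SD, n = 3) in clone 2 and 10.8 ± 0.656 CPM in clone 1, a log2 difference of -4.65 ± 0.17 (SE, edgeR adjusted p 4.20e-09). Prrx1 averaged 57.5 ± 9.23 CPM in clone 2 and 13.9 ± 1.74 CPM in clone 1, a difference of 2.05 ± 0.15 (edgeR adjusted p 7.23e-07). Prrx2 averaged 0.0504 ± 0.0252 CPM in clone 2 and 0.548 ± 0.155 CPM in clone 1, a difference of -3.39 ± 0.40 (edgeR adjusted p 2.76e-05). The Zeb genes and Twist1 differed less, by -0.60 ± 0.07 for Zeb1, -0.50 ± 0.14 for Zeb2 and -0.38 ± 0.07 for Twist1, each past edgeR's test but not past 2-fold. Snai2 did not pass, at -0.33 ± 0.14 (edgeR adjusted p 0.0729), and its libraries overlapped between the clones. Snai2 passed the test without replicate 1 of clone 2 (-0.49) and without wild-type replicate 1 (-0.35).

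Levels of different genes were compared per kilobase of annotated exon. In wild-type cells Twist1 was highest at 24.8 ± 0.156 CPM per kilobase (SD, n = 3), followed by Snai1 at 18.7 ± 1.05, and all others lay at or below the 1.73 ± 0.257 of Prrx2. In clone 1 Twist1 stayed highest at 20.04 ± 0.146, followed by Zeb1 at 10.9 ± 0.311, Snai1 at 6.65 ± 0.404, Snai2 at 4.27 ± 0.345 and Zeb2 at 3.79 ± 0.415. In clone 2 the order was Twist1 at 15.4 ± 1.64, Zeb1 at 7.19 ± 0.575, Prrx1 at 5.20 ± 0.834, Snai2 at 3.40 ± 0.647 and Zeb2 at 2.67 ± 0.477. Twist1 thus led in all 3 groups, and Snai1, next to it in wild-type cells, lay below Zeb1 in clone 1 and far below it in clone 2, at 0.262 ± 0.100. Snai2 and Zeb2 overlapped in both clones. Scaled to the longest transcript instead, Zeb2 came before Snai2 in both clones and, at 8.29 ± 0.906 CPM per kilobase, also before Snai1 in clone 1. On that scale Zeb1 reached 19.3 ± 0.550 in clone 1, just under Twist1, and in wild-type cells Prrx1 came before Snai2. Summed per kilobase over all 9, the level was 47.2 ± 0.824 in clone 1 and 34.2 ± 3.94 in clone 2, against 47.0 ± 1.12 in wild-type cells. Twist1 held 42.5% of that sum in clone 1 and 45.2% in clone 2, against 52.9% in wild-type cells. That comparison depends on the length used. With the longest transcript the sums were 61.1 ± 1.55 in clone 1 and 46.5 ± 5.40 in clone 2, against 48.8 ± 1.11 in wild-type cells, and Twist1 held 32.8% in clone 1 and 33.3% in clone 2, against 50.9% in wild-type cells.

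For each tested member the genes with the most similar profile were found by the root mean square difference of centred log2 CPM over the 9 libraries. With 3 groups of technical replicates, such likeness rests mostly on 3 group means. For Zeb1 they were Lhx6 (0.116) and Mylk (0.138), for Zeb2 H60c (0.144) and Nod2 (0.181), and for Snai2 Dclk1 (0.0859) and Aldh1l2 (0.164). For Twist1 they were Chd6 (0.0562) and Ptp4a2 (0.0643), and for Prrx1 Pls1 (0.239) and Ntrk3 (0.252). Snai1 and Prrx2 had looser matches, Fmnl1 (0.331) and Dynap (0.440) for Snai1 and Zfp791 (0.375) and Dnmt3b (0.389) for Prrx2. No member was among the best matches of another.

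Of 17 other transcription factors linked to the transition, 12 could be tested, and 8 were lower and 2 higher in both clones. Over all tested genes the shares were 29.4% lower and 28.7% higher in both, and the counts of each list that follows can be read against them. Their median log2 fold change was -2.01 in clone 1 and -2.86 in clone 2, against 0.00248 and -0.00267 over all tested genes. The homeobox gene Msx2 had 1 count in clone 1 and 0 in clone 2, against 1170 in wild-type cells, and Msx1 had 8 and 4, against 1113. Foxf2, a forkhead factor, had 0 counts in both clones, against 155 in wild-type cells. The factors that rose in both clones were Sox9, with log2 fold changes of 1.25 and 1.00 in clone 1 and clone 2, and Foxc1, with 0.48 and 0.19. Runx2 rose in clone 1 (0.75) and fell in clone 2 (-0.29). Scrt1, Scrt2, Gsc and Klf8 had 0 counts in every library, and Lef1 had 1 count in all.

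Among the 7 E and Id proteins, the partners and inhibitors of helix-loop-helix factors such as Twist1, 3 rose and 1 fell in both clones, near those shares. Id4, which sequesters E proteins, had mean levels of 35.8 CPM in clone 1 and 36.3 CPM in clone 2, against 3.28 CPM in wild-type cells. Id3 rose by 1.14 in clone 1 and 1.84 in clone 2 on the log2 scale, and the E protein gene Tcf12 rose by 0.77 and 0.90. Id2 fell by 0.38 in clone 1 and by 1.23 in clone 2. Tcf4 rose in clone 1 (0.54) and was lower in clone 2 (-0.28). The clone 2 call for Tcf4 had an edgeR adjusted p of 0.044 and was lost without replicate 2 (-0.28) or 3 (-0.21) of clone 2, without wild-type replicate 1 (-0.23) or 3 (-0.30), and without replicate 2 of clone 1 (-0.28).

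The 19 co-repressors and modifying enzymes that Snail and Zeb factors recruit moved little. In both clones 3 rose and 7 fell, which is no more than among all tested genes together, and the medians were -0.07 in clone 1 and -0.06 in clone 2. Kdm1a (LSD1), a histone demethylase recruited by the SNAG domain of Snail, fell by 1.12 in clone 1 and 1.09 in clone 2, and the histone methyltransferase Ehmt2 (G9a) fell by 0.85 and 0.64. Wtip, a LIM protein of the Ajuba family, fell by 0.98 and 0.64, whereas the acetyltransferase Kat2b rose by 0.90 and 0.71. Of 12 genes for enzymes that modify or degrade these factors, 4 rose and 3 fell in both clones, again near the shares of all tested genes. The kinase gene Lats2 rose by 1.26 in clone 1 and 1.04 in clone 2. Gsk3b, the kinase that marks Snail for degradation, rose by 0.48 and 0.50, and the ubiquitin ligase gene Fbxl14 fell by 0.64 and 0.29. Siah1a rose by 1.37 in clone 1 and had 0.26 in clone 2, which did not pass. The clone 2 value passed without replicate 1 of clone 1 (0.26), replicate 2 of clone 2 (0.29) or wild-type replicate 1 (0.28). Protein levels were not measured.

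Of the lists, that of genes these factors are known to repress had the largest median change. The lists were chosen with earlier results of these data known, so their counts are not independent of these data. Of 20 epithelial genes known as targets of repression by Snail or Zeb factors, 19 fell and 1 rose in both clones, and all 20 were tested. Their median log2 fold change was -10.37 in clone 1 and -9.91 in clone 2. Patj, a polarity scaffold, had 0 counts in all 6 clone libraries, against 32155 over the wild-type libraries, and Cldn3, a claudin, had 0 in clone 1 and 5 in clone 2, against 117206. Esrp1, an epithelial splicing regulator, had 2 counts in clone 1 and 0 in clone 2, against 41325. Cdh1 changed less, by -2.99 ± 0.08 (SE, n = 3) on the log2 scale in clone 1 and -4.40 ± 0.08 in clone 2. The gene that rose was Muc1, by 1.96 ± 0.31 in clone 1 and 0.86 ± 0.32 in clone 2. Whether any of these changes follows from one of the 9 factors was not tested.

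Promoter windows of 300 bases, from 250 before to 50 after each RefSeq start (GRCm38.p6), were searched for the E-box CAGGTG and its complement CACCTG, which together cover both strands. Over all 27025 genes with a window, 22.6% held it. Of the repressed genes with a window, 12 of 13 did (92.3%), all but Cldn1. Some of these genes entered the literature because of such E-boxes, so that share is not independent. Of the mesenchymal genes 1 of 10 did (10%), and of the members themselves 1 of 6 did, which was Snai1. Stretches of 4 repressed genes and of Snai1 are printed on the plus strand with the motif in capitals, to show where it lies before the start. In Snai1 it begins 126 bases before the annotated start.
Snai1 chr2:167538024-167538119: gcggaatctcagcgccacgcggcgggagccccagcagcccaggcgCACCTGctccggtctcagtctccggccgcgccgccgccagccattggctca
Patj chr4:98395762-98395825: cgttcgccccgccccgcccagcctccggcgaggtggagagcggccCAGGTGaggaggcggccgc
Cldn7 chr11:69965279-69965414: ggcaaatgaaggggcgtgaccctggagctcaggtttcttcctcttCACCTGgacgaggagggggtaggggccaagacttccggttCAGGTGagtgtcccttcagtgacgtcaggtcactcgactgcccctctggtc
Crb3 chr17:57062038-57062200: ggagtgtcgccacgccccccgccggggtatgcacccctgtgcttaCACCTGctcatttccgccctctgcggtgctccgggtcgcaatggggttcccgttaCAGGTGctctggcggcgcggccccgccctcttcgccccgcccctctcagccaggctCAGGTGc
Epcam chr17:87635747-87635978: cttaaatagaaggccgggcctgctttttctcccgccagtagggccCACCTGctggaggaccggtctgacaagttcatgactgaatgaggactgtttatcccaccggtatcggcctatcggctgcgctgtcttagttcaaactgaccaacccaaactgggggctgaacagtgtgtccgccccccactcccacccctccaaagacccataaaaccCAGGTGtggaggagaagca

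These letters mark a match only. Patj and Epcam had 0 counts in every library of clone 2, Cldn7 had 9 counts over clone 1 and 2 over clone 2, and Crb3 had 15 and 4. In wild-type cells the sums were 32155 for Patj, 147918 for Epcam, 52978 for Cldn7 and 4785 for Crb3. Muc1 held the same motif and rose.

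Of 20 mesenchymal genes, 18 could be tested, and 16 rose and 1 fell in both clones. Their median log2 fold change was 2.94 in clone 1 and 2.63 in clone 2, or 1.84 in clone 2 with a gene that had 0 counts in wild-type cells set at its bound. That gene was Col3a1, with 218 counts over clone 1 and 6 over clone 2, and its change in clone 2 passed only without replicate 2 of clone 2 (4.52) among the fits that left out a library. Postn, a matrix protein, averaged 99.2 CPM in clone 1 and 895 CPM in clone 2, against 6.97 CPM in wild-type cells, and differed by 3.17 ± 0.11 on the log2 scale between clone 2 and clone 1 (SE, edgeR adjusted p 2.40e-09). Acta2, smooth muscle actin, averaged 0.562 CPM in clone 1 and 2.44 CPM in clone 2, against 0.0296 CPM in wild-type cells. Lox, a collagen crosslinking enzyme, rose by 8.04 in clone 1 and 8.45 in clone 2 on the log2 scale. Tnc, a matrix protein also made in mesenchyme, was the member that fell, by 7.36 in clone 1 and 2.95 in clone 2.

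Of 15 transcription factors that keep epithelial identity and oppose the transition, 14 could be tested. In both clones 9 fell and 2 rose, 2 moved in opposite directions, and the medians were -2.49 in clone 1 and -2.34 in clone 2. Tfap2c, a luminal AP-2 factor, had 0 counts in both clones, against 10214 over the wild-type libraries, and Foxa1 and Grhl3 had 0, against 104 and 62. Elf5, a factor of luminal progenitors, averaged 0.285 CPM in clone 1 and 0.214 CPM in clone 2, against 43.3 CPM in wild-type cells. Klf4 rose by 2.43 in clone 1 and 1.60 in clone 2, and Klf5 by 0.67 and 0.59. Ehf had 0.39 in clone 1 and -2.44 in clone 2, and Tfap2a had 0.79 and -0.50, all past the test. The clone 1 call for Ehf was lost without replicate 1 of clone 1 (0.29) and without wild-type replicate 2 (0.33). Of 15 genes for signals known to induce the factors, 7 rose and 2 fell in both clones, with medians of 0.25 in clone 1 and 0.13 in clone 2. Taken in either direction, that is close to the share of all tested genes. The ligand genes Tgfb2 and Tgfb3 rose, Tgfb2 by 2.27 in clone 1 and 2.93 in clone 2, and Tgfb3 by 1.02 and 1.78. Smad3, which carries their signal to the nucleus, fell by 1.23 in clone 1 and 1.56 in clone 2. Epas1, a hypoxia factor, had 0 counts in clone 1 and averaged 4.99 CPM in clone 2, against 4.55 CPM in wild-type cells.

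**Figure D4:**
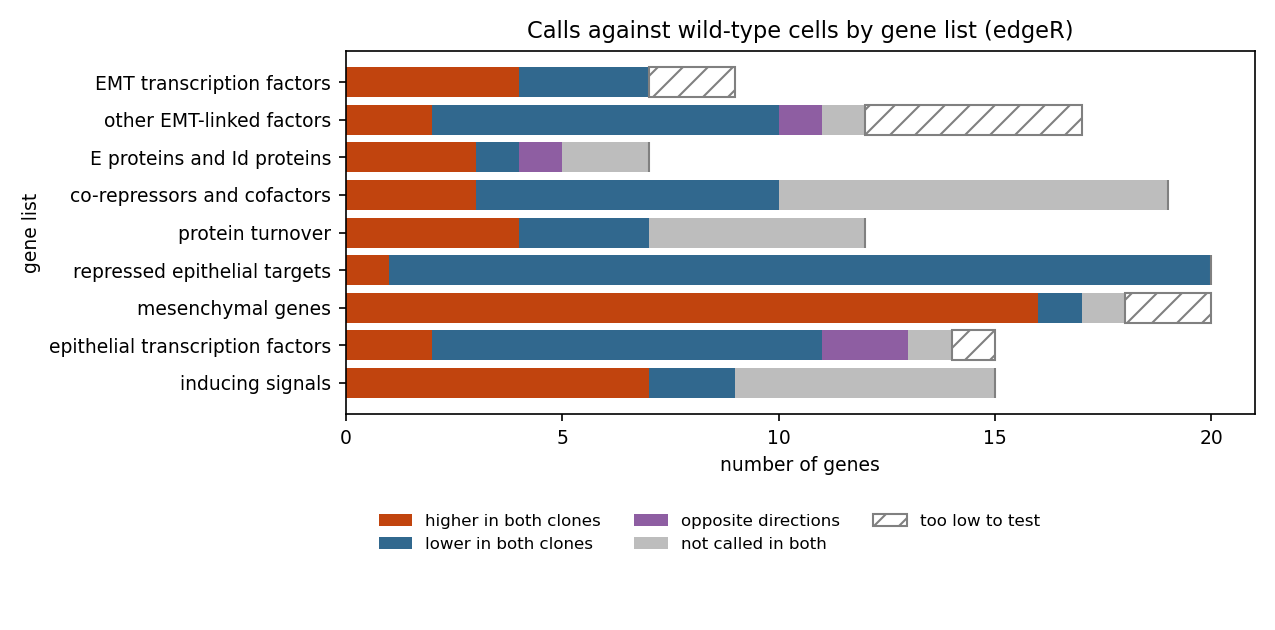
Number of genes in each list that were higher in both clones, lower in both, called in opposite directions, or not called in both, by edgeR's test against wild-type cells, with hatched parts for genes too low to test. The repressed targets are nearly all lower (19 of 20), the mesenchymal targets nearly all higher (16 of 18), and the 9 factors themselves divide into 4 higher and 3 lower. The lists were chosen with earlier results of these data known.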

How the data were processed

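RNA sequencing libraries of 3 groups, each with 3 technical replicates, were compared through the deposited table of raw counts per gene. The authors' counts are whole numbers with no normalization. Per the submitters' processing notes, fastp, Subread and DESeq2 were used, with builds mm10 and GRCm38. Annotation and strand setting of the counting: not given in the sources used here. Rows of 24 genes without a symbol took at most 0.202% of a library. Counts were fitted in R 4.3.3 with edgeR 4.0.16 (filterByExpr with a minimum count of 10, TMM, quasi-likelihood F test with 1 factor of 3 groups over 9 libraries), which left 13928 genes with a common biological coefficient of variation of 0.0878. Adjusted p under 0.05 (Benjamini-Hochberg over all tested genes) counted as a difference, and glmTreat tested past a log2 fold change of 1. Each SE of a log2 fold change was derived as its absolute value divided by the square root of the F statistic. It thus rests on a spread estimated over all 9 libraries. The fit was tested on simulated data in which a small part of the genes changed, in clone 1 only. Most genes passed in the real data, so that test does not cover their setting. Libraries of a group differed beyond sampling noise and were counted separately.

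At which step the technical replicates parted is not stated. Levels across genes are CPM per kilobase of GENCODE M21 exon union. Intervals and floors describe counting error alone, as PCR copies could not be removed without molecular identifiers. The members and lists were chosen with earlier results of these data known. Named genes were the 9 members, from each list the 4 genes that changed most on average and at most 2 whose calls had opposite signs, the 2 closest profiles, the nearest protein-coding genes and Sox10; other genes named were chosen after their values were seen. A gene that met this rule is not reported here; list counts include it. Sequences come from RefSeq (GRCm38.p6; 6 of 9 members had a promoter window) and GENCODE. Alternatives were DESeq2 1.42.0, other scaling and filters, a replicate block and leaving out each library.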

Additional observations from a re-analysis of the deposited data

Results flagged for a closer look

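For 3 of the 7 tested factors the change against wild-type cells was of a different size in the 2 knockout clones. The difference itself was past 2-fold by edgeR's test, where 8.52% of all tested genes were. Snai1 was lower in clone 2 than in clone 1, with a log2 difference of -4.65 between changes of -6.14 in clone 2 and -1.49 in clone 1. Prrx2 was lower in clone 2 as well, with a difference of -3.39 between -6.02 and -2.63. Prrx1 was higher in clone 2, with a difference of 2.05 between 5.40 and 3.34. In each case the changes in the clones had the same sign and no library of clone 2 overlapped one of clone 1. How many of all tested genes stood apart between the clones in this way was not counted. Each clone is a single clone, so what distinguishes them was not tested.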

How the results depend on the processing

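For each clone against wild-type cells, all 7 tested members kept their direction and their side of the threshold under all 16 alternatives. These were 2 other scalings, no filter and a stricter filter, DESeq2's Wald test, only the 6 libraries compared, a replicate block, and leaving out each of the 9 libraries. Zeb1 ranged over 3.39 to 3.47 in clone 1 and 2.77 to 2.85 in clone 2, Snai2 over 4.30 to 4.54 and 3.94 to 4.19, and Prrx1 over 3.16 to 3.54 and 5.21 to 5.59. Snai1 ranged over -1.53 to -1.44 in clone 1 and -6.51 to -5.97 in clone 2, and Prrx2 over -2.78 to -2.42 and -6.43 to -5.77. Between the clones, the call for Snai2 changed, which passed under the stricter filter (-0.35), with only 6 libraries (-0.34) and with the replicate block (-0.34). The cause was not tested.

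Replicate numbers were taken as shared numbers and not as pairs. The correlation of deviations from the group means was 0.218, 0.0475 and 0.0886 for same-numbered libraries of clone 1 and wild-type cells. For clone 2 it was 0.249, 0.108 and 0.0143, and not every library correlated best with its own number. Replicate 1 of clone 1 had -0.099 and -0.149 with wild-type replicates 2 and 3, and replicate 1 of clone 2 had -0.143 with each. Whether replicate 1 carried a shift shared by the groups was not tested. With the replicate block, 11420 genes passed for clone 1 and 11257 for clone 2, against 10653 and 10367 without it, and the members' counts stayed at 4 higher and 3 lower. Of genes outside the 9, Siah1a in clone 2 (0.25) passed with the block, Tcf4 in clone 2 did not pass with unscaled totals (-0.29), and Col3a1 in clone 2 passed with no filter (4.01) and by DESeq2 (3.33). Depth limits Twist2, Foxc2 and Prrx2 in clone 2.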
